A study of Sus scrofa with 4 samples.

Results

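The genes described here are the triglyceride lipases and the proteins that activate, inhibit, fold or anchor them. They were chosen by name, as the protein-coding genes LIPE, PNPLA2, PNPLA3, ABHD5, MGLL, G0S2, LPL, LIPA, GPIHBP1 and LMF1, 10 genes in all, against 16192 protein-coding genes with values in the series. Of the 10, 9 had values in each of the 4 libraries, 7 were reliably expressed (FPKM reaching 1 in 3 or more libraries), and 2, PNPLA3 and G0S2, were below that filter. GPIHBP1, which carries LPL to the capillary lumen, was not analysed here.

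Primary preadipocytes came from the subcutaneous fat of 3 male 5-day-old Chinese Erhualian piglets and were differentiated in culture. The D0 cells were confluent preadipocytes before any inducer, the D2 cells had been in dexamethasone, 3-isobutyl-1-methylxanthine and insulin, the D4 cells had since been in medium with insulin, and the D8 cells had since been returned to growth medium. Total RNA of the 3 piglets was mixed in equal parts for each stage, rRNA was removed and 1 strand-specific library was sequenced, with between 54128151 and 75387428 fragments behind the FPKM values of a library. There are no replicates, so stage, library and culture medium cannot be told apart, no test compares the stages, and the 95% intervals given below cover counting error only.

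Fat cells break down stored triglyceride in steps at the surface of the lipid droplet. PNPLA2 (adipose triglyceride lipase) takes off the first fatty acid with the help of its activator ABHD5 and is held back by G0S2, LIPE (hormone-sensitive lipase) cleaves the diglyceride, and MGLL cleaves the monoglyceride to glycerol. LPL works outside the cell on the triglyceride of circulating lipoproteins and needs LMF1 to fold in the endoplasmic reticulum, whereas LIPA hydrolyses lipid inside lysosomes.

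The levels of 5 of the genes, LIPE, PNPLA2, ABHD5, LPL and LIPA, were lowest at D0, highest at D4 and lower again at D8. They differed in how much of the D4 level was left at D8, from 32.3% for LIPE to 57% for LPL. MGLL was the one gene of the group with its highest level at D8, and LMF1 varied by no more than 1.58-fold over the 4 libraries. The summed FPKM of the 9 genes was 54.8 at D0, 223 at D2, 489 at D4, then 246 at D8. LPL and ABHD5 together made up most of this sum in every library. LPL alone held 35.1% of it at D0, 42.5% at D2, 51% at D4, then 57.8% at D8.

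**Figure D1:**
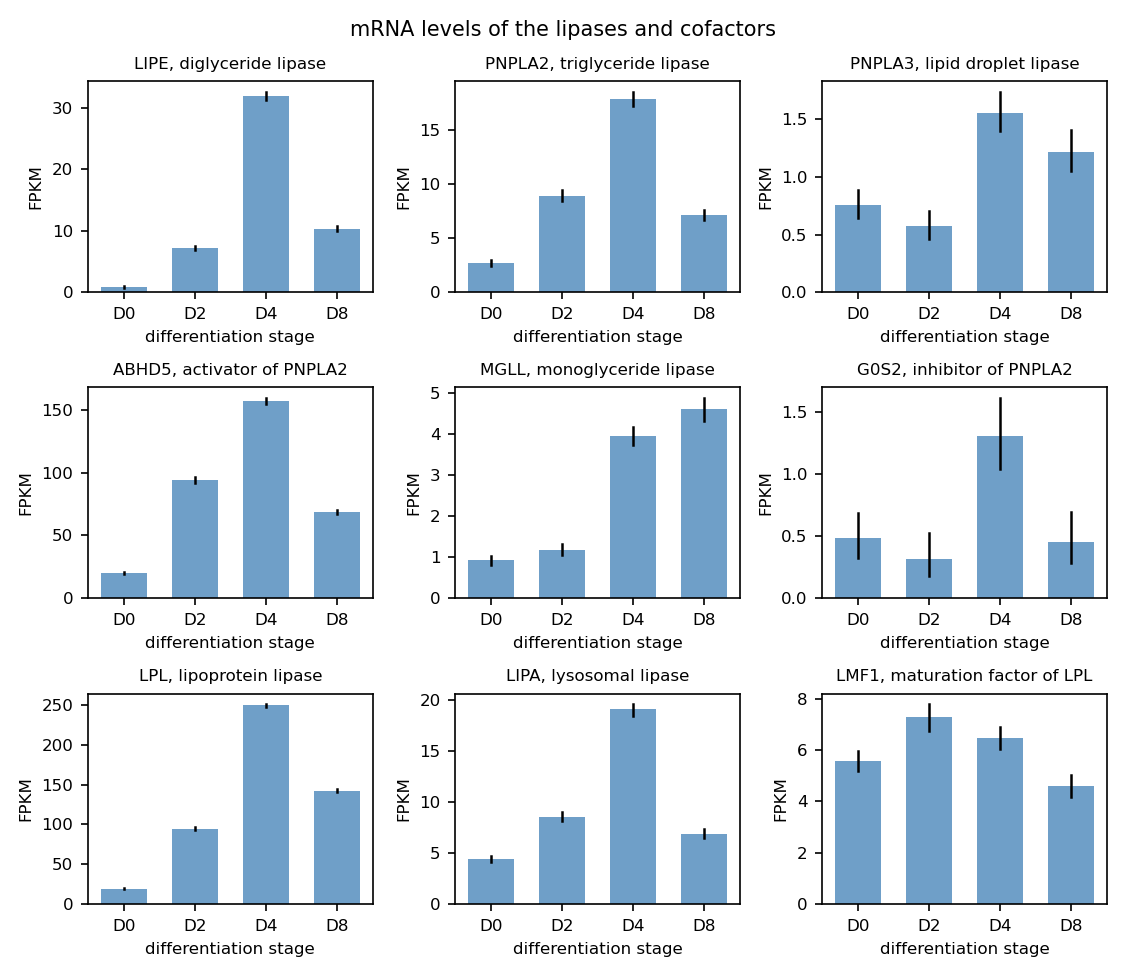
Level of each gene in FPKM (y axis, one scale per panel) in the D0, D2, D4 and D8 libraries (x axis), 1 library per stage. Bars are the deposited values and black lines are 95% counting intervals of the reads (exact Poisson). LIPE, PNPLA2, ABHD5, LPL and LIPA peak at D4, MGLL is highest at D8 with 4.6 FPKM, and LMF1 stays between 4.59 and 7.27 FPKM.

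PNPLA2 (chromosome 2, 513065 to 517962, plus strand, Sscrofa11.1) performs the first step of lipolysis. Its level was 2.7 FPKM at D0, 8.95 at D2, 17.9 at D4, then 7.14 at D8, from 438, 1059, 2868 and 831 reads. D4 stood above all other libraries, and D8 lay between D0 and D2. The log2 ratio of (FPKM + 0.01) was 1.73 for D2 vs D0 (95% counting interval 1.57 to 1.89), 1.0 for D4 vs D2 (0.90 to 1.10) and -1.33 for D8 vs D4 (-1.44 to -1.22). The D4 vs D2 ratio sits at the 2-fold limit, and its interval spans it. At D8 PNPLA2 was still 2.64-fold above D0.

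ABHD5, the coactivator of PNPLA2, lies on chromosome 13 (27006331 to 27053760, plus strand). Its level was 19.9 FPKM at D0, 94.1 at D2, 157 at D4, then 68.5 at D8. The order of the stages was the same as for PNPLA2, with D4 highest and D8 between D0 and D2. The log2 ratio was 2.24 for D2 vs D0 (2.17 to 2.31), 0.74 for D4 vs D2 (0.70 to 0.78) and -1.20 for D8 vs D4 (-1.25 to -1.15). Per length, ABHD5 mRNA exceeded PNPLA2 mRNA in each library. The ratio of their FPKM was 7.38 at D0 (95% counting interval 6.66 to 8.21), 10.5 at D2 (9.85 to 11.2), 8.77 at D4 (8.43 to 9.13) and 9.6 at D8 (8.92 to 10.3). Thus both levels changed several-fold, while their ratio stayed within a narrow band whose D0 value was the lowest. Of all pairs among the 9 genes, PNPLA2 and ABHD5 also had the closest profiles over the 4 libraries, with a Euclidean distance of 0.38 between their centred log2 values, where the pair with LIPE was at 1.99 from PNPLA2 and 1.79 from ABHD5.

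G0S2, the inhibitor of PNPLA2 (chromosome 9, 133287065 to 133288066, minus strand), was listed at a low level throughout. It had 0.481 FPKM at D0, 0.319 at D2, 1.31 at D4, then 0.454 at D8, from only 31, 15, 83 and 21 reads. D4 was the highest, and the other 3 libraries lay close together. The D4 vs D2 log2 ratio was 2.0 with a wide interval (1.23 to 2.93), and that of D8 vs D0, -0.08 (-0.96 to 0.76), could not be told from 0 at this depth. Relative to PNPLA2, the FPKM of G0S2 was 0.178 at D0 (0.12 to 0.256), 0.0356 at D2 (0.0199 to 0.059), 0.0728 at D4 (0.0578 to 0.0906) and 0.0636 at D8 (0.0391 to 0.0978). The inhibitor mRNA was therefore highest relative to the lipase mRNA before induction, and the intervals of this ratio at D2, D4 and D8 overlapped.

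LIPE lies on chromosome 6 (49543671 to 49560126, plus strand) and had the largest ratio of the group. Its level was 0.808 FPKM at D0, 7.15 at D2, 31.9 at D4, then 10.3 at D8, from 230, 1486, 8971 and 2111 reads. D0 was far below the other 3 libraries, and D8 stayed above D2. The log2 ratio was 3.13 for D2 vs D0 (2.95 to 3.35) and 2.16 for D4 vs D2 (2.08 to 2.24). This gives 5.29 for D4 vs D0 (5.12 to 5.50) or 39.1-fold, the 19th highest of 9191 reliably expressed genes. As LIPE passed the filter through D2, D4 and D8 and not through D0, this rank is not free of the filter. From D4 to D8 the log2 ratio was -1.63 (-1.70 to -1.56), and D8 remained 12.6-fold above D0. Per length, LIPE mRNA was 0.299 times that of PNPLA2 at D0 (0.254 to 0.352), 0.799 times at D2 (0.738 to 0.865), 1.78 times at D4 (1.71 to 1.86) and 1.45 times at D8 (1.33 to 1.57), a ratio chosen after the values were seen. Per length, PNPLA2 mRNA was thus the more abundant at D0 and D2, and LIPE mRNA at D4 and D8. At D2 this rests on the gene lengths, as the ratio of reads not divided by length was 1.4. The gene ATP5SL overlaps LIPE on the opposite strand, and whether the counting used strand is not given in the sources used here. ATP5SL itself had 11.8, 14.8, 15.4 and 9.01 FPKM, above LIPE at D0 and D2 and below it at D4 and D8. Any part of its reads in the LIPE values was not tested.

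MGLL, which completes lipolysis (chromosome 13, 72480395 to 72568964, plus strand), had 0.917 FPKM at D0, 1.18 at D2, 3.94 at D4, then 4.6 at D8. D0 and D2 were low and D4 and D8 high. On the log2 scale its largest step was D4 vs D2, where those of PNPLA2, ABHD5 and LIPE were D2 vs D0. In FPKM, PNPLA2 and LIPE also differed more between D2 and D4 than between D0 and D2. The log2 ratio was 0.36 for D2 vs D0 (0.12 to 0.61), 1.73 for D4 vs D2 (1.55 to 1.94) and 0.22 for D8 vs D4 (0.10 to 0.34). At D8 the level was 4.97-fold that at D0, whereas LIPE and PNPLA2 were below their D4 values by then. The FPKM ratio of MGLL to LIPE, also chosen after the values were seen, was 1.14 at D0 (0.951 to 1.36), 0.165 at D2 (0.144 to 0.188), 0.123 at D4 (0.116 to 0.131) and 0.445 at D8 (0.413 to 0.48). ABTB1, which overlaps MGLL on the opposite strand, had 0.811, 0.974, 1 and 0.573 FPKM, close to MGLL at D0 and D2. Any part of its reads in the MGLL values was not tested.

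PNPLA3 (adiponutrin, chromosome 5, 5075608 to 5092599, minus strand) is a lipid droplet protein related to PNPLA2 in sequence. Its level was 0.759 FPKM at D0, 0.575 at D2, 1.56 at D4, then 1.22 at D8. D2 was the lowest library here, unlike for PNPLA2, and D8 kept 78.1% of the D4 level. The log2 ratio was -0.39 for D2 vs D0 (-0.79 to -0.02), 1.43 for D4 vs D2 (1.10 to 1.80) and -0.35 for D8 vs D4 (-0.62 to -0.09). An uncharacterised lncRNA on the opposite strand overlaps the gene and had no more than 0.796 FPKM, reached at D2, where it was above PNPLA3. Any part of its reads in the PNPLA3 values was not tested.

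**Figure D2:**
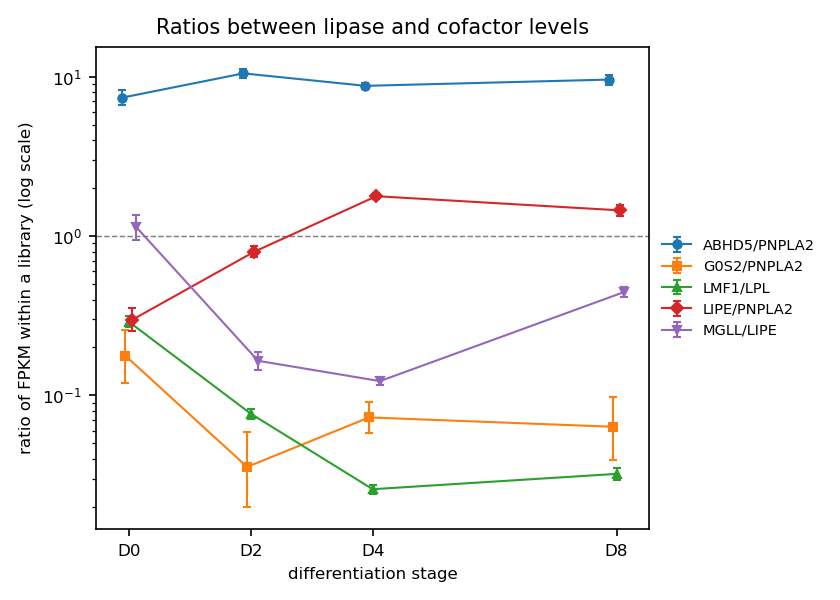
Ratio of the FPKM of 2 genes within the same library (y axis, log scale) by stage (x axis), with 95% counting intervals from the reads as bars. ABHD5/PNPLA2 stays between 7.38 and 10.5, LMF1/LPL goes from 0.29 at D0 to 0.0258 at D4, and LIPE/PNPLA2 crosses the dashed line at 1 between D2 and D4.

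LPL, the lipase that adipocytes secrete (chromosome 14, 4104761 to 4134964, plus strand), was the most abundant gene of the group at D4 and D8, and within counting error of ABHD5 at D0 and D2. Its level was 19.2 FPKM at D0, 94.7 at D2, 250 at D4, then 142 at D8, from 4345, 15624, 55717 and 23123 reads. D8 lay between D2 and D4, and the share of the D4 level left at D8 was higher for LPL than for LIPE, PNPLA2, ABHD5 or LIPA. The log2 ratio was 2.30 for D2 vs D0 (2.25 to 2.35), 1.40 for D4 vs D2 (1.37 to 1.42) and -0.81 for D8 vs D4 (-0.83 to -0.79). By rank of FPKM among the 16192 protein-coding genes, LPL went from 2582nd at D0 to 237th at D4 and was 400th at D8. D4 vs D0 was 13-fold.

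LMF1, the maturation factor of LPL (chromosome 3, 40841242 to 40929163, plus strand), had 5.57 FPKM at D0, 7.27 at D2, 6.45 at D4, then 4.59 at D8. D2 was slightly the highest and D8 the lowest. No pair of libraries differed by 2-fold, and the D4 vs D0 log2 ratio was 0.21 (0.07 to 0.35). With LPL higher after D0 and LMF1 nearly level, the FPKM ratio of LMF1 to LPL went from 0.29 at D0 (0.268 to 0.313) to 0.0768 at D2 (0.0712 to 0.0826) and 0.0258 at D4 (0.0242 to 0.0276), and was 0.0322 at D8 (0.0294 to 0.0353). An lncRNA on the opposite strand overlaps LMF1 and had no more than 0.515 FPKM, and any part of its reads in the LMF1 values was not tested. The paralogue LMF2, and SEL1L, which is involved in LPL maturation, were as level as LMF1. LMF2 had 10.3, 11.2, 11.6 and 10.6 FPKM and SEL1L had 29.8, 33.9, 30.2 and 25 FPKM.

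LIPA, lysosomal acid lipase (chromosome 14, 101131372 to 101254739, minus strand), had 4.38 FPKM at D0, 8.57 at D2, 19.1 at D4, then 6.92 at D8. D4 was the highest and D8 lay between D0 and D2, as for PNPLA2 and ABHD5. The log2 ratio was 0.96 for D2 vs D0 (0.85 to 1.09), 1.15 for D4 vs D2 (1.07 to 1.24) and -1.46 for D8 vs D4 (-1.56 to -1.37). At D8 it was 1.58-fold above D0. The span of LIPA holds the interferon-induced genes IFIT1, IFIT2 and IFIT3 on the opposite strand. Of these, IFIT1 had 0.658, 6.8, 8.61 and 15.9 FPKM and was highest at D8, where LIPA was lower than at D4. Both IFIT1 and IFIT3 (8.76 FPKM) were above LIPA at D8. Any part of the reads of these genes in the LIPA values was not tested.

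Counted together, the 7 reliably expressed genes were set against all 9191 reliably expressed genes. A gene was called upregulated or downregulated when its level differed at least 2-fold, without a test. LIPE and MGLL were under 1 FPKM at D0 and passed the filter through D2, D4 and D8, so their D0 comparisons are not free of the filter. In D2 vs D0, 4 of 7 were upregulated (LIPE, PNPLA2, ABHD5 and LPL), where 6.67% of all genes were, and none was downregulated, where 10.1% were. In D4 vs D2, 5 of 7 were upregulated (LIPE, PNPLA2, MGLL, LPL and LIPA), against 4.24% of all genes, and none was downregulated, against 0.838%. PNPLA2 was at the limit. With 0.1 or 1 added to FPKM, or with either rescaling of the libraries, 4 of 7 were upregulated, against 2.54% to 4.04% of all genes.

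In D8 vs D4 the direction turned. None of the 7 was upregulated, where 4.43% of all genes were, and 4 were downregulated (LIPE, PNPLA2, ABHD5 and LIPA), where 10.1% were. Median-ratio scaling of the libraries moves the median of all genes by 0.21 on the log2 scale in this comparison. After it, 5.92% of all genes were downregulated and 6.48% upregulated. The log2 ratio of ABHD5 was then -0.99, so that 3 of the 7 were downregulated. Over the whole time course, 6 of 7 were upregulated in D4 vs D0 (LMF1 was not), against 10.4% of all genes, and none was downregulated, against 8.81%. In D8 vs D0, 5 of 7 were upregulated, all of those but LIPA and LMF1. Among all genes 3.6% were upregulated and 3.68% downregulated in D8 vs D0, which became 4.53% and 2.02% after median-ratio scaling.

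The median log2 ratio of the 7 genes was 1.73 in D2 vs D0, 1.15 in D4 vs D2, -1.20 in D8 vs D4, 2.73 in D4 vs D0 and 1.78 in D8 vs D0. The medians of all reliably expressed genes in the same comparisons were -0.03, 0.09, -0.21, 0.06 and -0.18. With PNPLA3 and G0S2 included, the median of the 9 genes was 0.96 in D2 vs D0 and 2.12 in D4 vs D0. With the filter applied in all 4 libraries, LIPE and MGLL dropped out, and 3 of the remaining 5 genes were upregulated in D2 vs D0, 3 in D4 vs D2, 4 in D4 vs D0 and 3 in D8 vs D0. The shares of all 8562 genes under that filter were 5.2%, 2.73%, 8.88% and 2.43%. The 3 comparisons with D0 share that library, as D4 vs D2 and D8 vs D4 share D4.

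**Figure D3:**
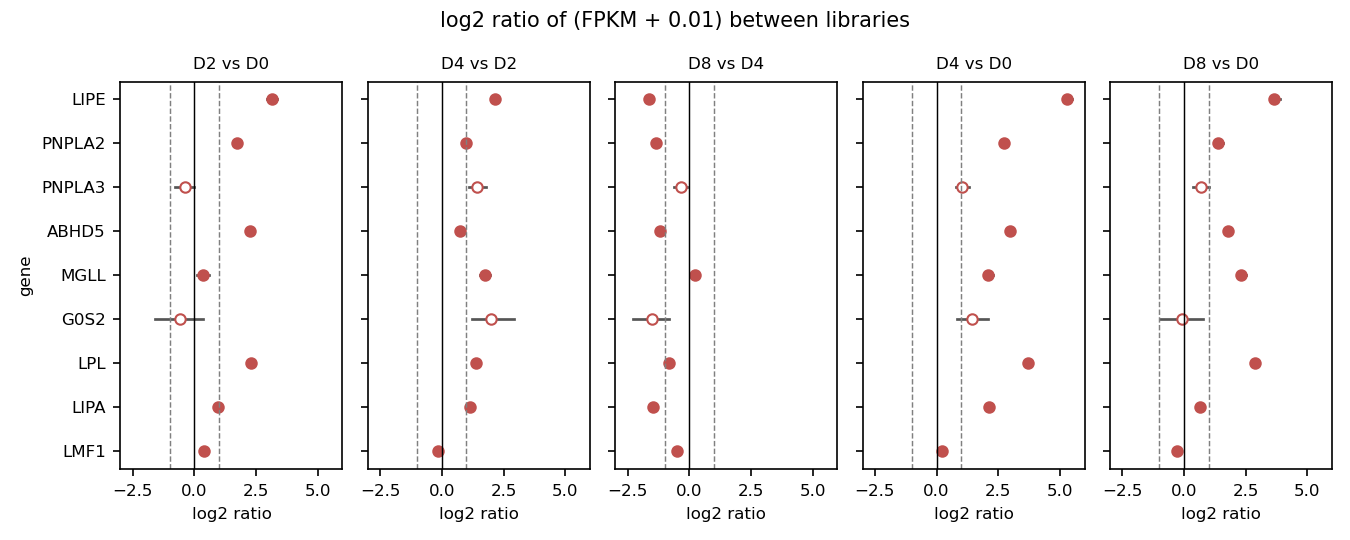
Log2 ratio of (FPKM + 0.01) (x axis) of each gene (y axis) in the 5 comparisons of libraries, with 95% counting intervals as grey lines, which are hidden by the point where narrow. Filled points are reliably expressed genes, open points are PNPLA3 and G0S2, and dashed lines mark a 2-fold difference. Most points are right of 0 in the comparisons with D0, up to 5.29 for LIPE in D4 vs D0, and left of 0 in D8 vs D4 except MGLL at 0.22.

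The other genes that work with the lipases were taken from lists of the pathway. Their counts stand beside the shares of all genes given above, 6.67% upregulated and 10.1% downregulated in D2 vs D0, 4.24% upregulated in D4 vs D2, 10.4% and 8.81% in D4 vs D0, and 4.43% and 10.1% in D8 vs D4. Counts against D0 are not free of the filter here either. PDE3B and AQP3, for example, were under 1 FPKM at D0 and passed it through D2, D4 and D8. Of 15 genes that guard or shape the lipid droplet, 10 were reliably expressed, and 4 of these were upregulated in D4 vs D0 and 3 downregulated in D8 vs D4. PLIN1, the perilipin that holds ABHD5 away from PNPLA2 until the cell is stimulated, had 2.28 FPKM at D0, 36.1 at D2, 215 at D4, then 90.3 at D8. Its order of stages was that of LIPE and LPL, with a D4 vs D0 log2 ratio of 6.55. CIDEA, a droplet protein that promotes lipid storage, had 2.75, 9.74, 40.2 and 54.3 FPKM. Its relative CIDEC was below the filter, with 0.271 FPKM at D0, 0.78 at D2, 5.01 at D4, then 54.6 at D8. CIDEA and CIDEC were thus highest at D8, and the D8 vs D4 log2 ratio of CIDEC, 3.44 (3.32 to 3.58), was opposite in sign to those of LIPE, PNPLA2 and ABHD5. HILPDA, another inhibitor of PNPLA2, had 20.6, 25.8, 18.2 and 29.8 FPKM, with its highest level also at D8. Per length, HILPDA exceeded G0S2 in each library.

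For the 22 genes of hormonal control, 13 were reliably expressed, of which 4 were upregulated and 1 downregulated in D2 vs D0, and 1 upregulated and 5 downregulated in D8 vs D4. The gene that went against the others in both was PRKG1, a cGMP-dependent kinase, named after its values were seen. PRKAR2B, a regulatory subunit of the cAMP-dependent kinase that phosphorylates LIPE and PLIN1, had 1.58 FPKM at D0, 11.1 at D2, 34.8 at D4, then 7.83 at D8. It was highest at D4 and its D4 vs D0 log2 ratio was 4.45. PDE3B, the phosphodiesterase through which insulin lowers cAMP, had 0.501, 1.61, 4.13 and 2.03 FPKM. The insulin receptor INSR, chosen after its values were seen, had 1.11, 3.61, 5.68 and 1.39 FPKM. These 3 genes shared the D4 maximum with LIPE.

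Of 23 genes listed for the control of LPL, 18 had values and 15 were reliably expressed, with 3 upregulated and 2 downregulated in D4 vs D0, and 1 upregulated and 5 downregulated in D8 vs D4. ANGPTL4, the secreted inhibitor of LPL, had 19.2 FPKM at D0, 72.2 at D2, 57.1 at D4, then 8.59 at D8. It was highest at D2 rather than D4, and the D8 vs D4 log2 ratio was -2.73 (-2.84 to -2.63), compared with -0.81 for LPL. PCSK6, a proprotein convertase that can cleave LPL, had 9.93, 4.33, 2.17 and 2.75 FPKM. It was lowest at D4, where LPL was highest.

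Among 25 other lipases and hydrolases of glycerolipids, 21 had values and 11 were reliably expressed, and none of them was upregulated or downregulated in D2 vs D0, D4 vs D2, D4 vs D0 or D8 vs D0. DDHD1, a phospholipase, had 4.51, 7.68, 8.19 and 5.34 FPKM, and PNPLA6, a lysophospholipase of the same family as PNPLA2, had 2.63, 4.29, 4.89 and 2.7 FPKM. In D8 vs D4, 3 of the 11 were downregulated. The carboxylesterase CES1, below the filter and chosen after its values were seen, had 0.0628 FPKM at D0, 0.64 at D2, 2.69 at D4, then 3.26 at D8, an order shared with MGLL. LIPG, the endothelial lipase, likewise chosen after its values were seen, had 84.4 FPKM at D0, 83.6 at D2, 59.3 at D4, then 44.6 at D8. Its log2 ratio to D0 was -0.51 at D4 and -0.92 at D8, short of 2-fold, where LPL was higher than at D0.

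Of 16 lysosomal genes, 15 were reliably expressed, with 3 upregulated in D4 vs D0 and 4 downregulated in D8 vs D4. NPC1, which exports cholesterol released by LIPA, had 3.25, 5.73, 8.29 and 3.76 FPKM. IGF2R, a receptor that sorts enzymes to lysosomes, had 2.15, 4.44, 5.4 and 2.22 FPKM. Both were highest at D4, with D4 vs D0 log2 ratios of 1.35 for NPC1 and 1.32 for IGF2R beside 2.12 for LIPA.

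Of 17 genes for the use of fatty acids and glycerol, 12 were reliably expressed, with 6 upregulated in D2 vs D0, 5 in D4 vs D2 and 1 downregulated in D8 vs D4. ACSL1, which activates fatty acids to acyl-CoA, had 10.7 FPKM at D0, 57.8 at D2, 219 at D4, then 128 at D8. The glycerol channel AQP3 had 0.327, 2.12, 13.1 and 8.47 FPKM. Both had the stage order of LIPE and LPL.

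**Figure D4:**
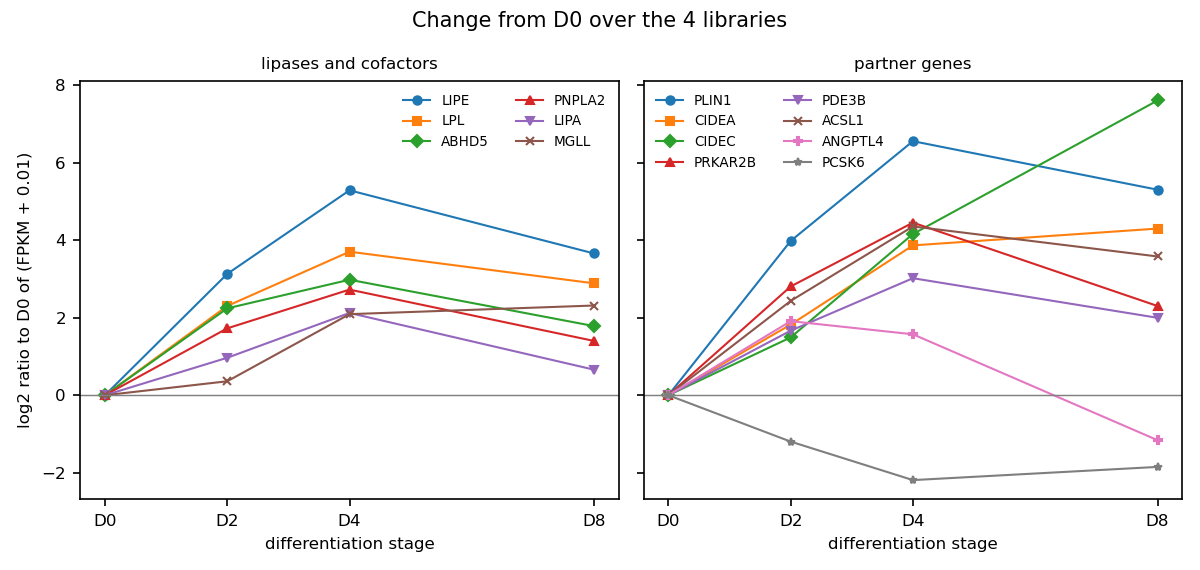
Log2 ratio to D0 of (FPKM + 0.01) (y axis) at each stage (x axis) for 6 lipases and cofactors (left) and for 8 partner genes (right), 1 library per stage. LIPE reaches 5.29 and PLIN1 6.55 at D4 before both are lower at D8, whereas CIDEC goes on to 7.60 at D8 and ANGPTL4 ends below its D0 level.

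The genes whose profiles over the 4 libraries were nearest to those of the lipases were found by the Euclidean distance between centred log2 values among reliably expressed genes. For LIPE they were TUSC5 at a distance of 0.24, COL5A3 at 0.40 and ADAMTS18 at 0.56. TUSC5 had 0.21 FPKM at D0, 1.75 at D2, 7.03 at D4, then 2.8 at D8. For PNPLA2 they were FMO4, TBC1D4 and PTGFR, each at 0.22, all nearer to it than ABHD5 was. For LPL they were APCDD1 at 0.19, SSH2 at 0.23 and PC at 0.24, and for PNPLA3 they were LOC110261664 at 0.11, PLA2G16 at 0.12 and HDHD3 at 0.19. With 4 libraries, these distances describe profiles and carry no test.

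Marker genes were summed to set the lipases beside the cell types a culture of this kind could hold. The adipocyte list (10 of 12 genes at 1 FPKM or more in a library) summed to 119 FPKM at D0, 423 at D2, 1529 at D4, then 1950 at D8. The preadipocyte list summed to 644, 989, 979 and 674. Its 8 reliably expressed genes did not move together. In D4 vs D0, 3 were upregulated (PDGFRB, DCN and LUM) and 1 was downregulated (NT5E). The higher adipocyte sum at D8 than at D4 came from FABP4 (853 FPKM at D4 and 1557 at D8) and CIDEC. Of the 9 reliably expressed adipocyte markers, 7 were lower in D8 vs D4, 6 of them at least 2-fold (PLIN1, PPARG, CEBPA, ADIPOR2, TUSC5 and PCK1), with a median log2 ratio of -1.14 beside -1.20 for the 7 lipases and cofactors. In bulk RNA fewer cells of a type and less RNA per cell cannot be told apart. In the smooth muscle and pericyte list, 8 of 10 genes reached 1 FPKM. It summed to 6248 at D0, 670 at D2, 520 at D4, then 4837 at D8. The sum was thus lowest where the summed lipases were highest. Most of it was ACTA2 (smooth muscle actin), with 2907, 324, 225 and 2762 FPKM, and TAGLN, with 2767, 297, 277 and 1987. Of the 7 reliably expressed genes of this list, 6 were at least 2-fold lower in D4 vs D0. NOTCH3 was not (1.32, 1.1, 1.47 and 1.66 FPKM). LMOD1, SMTN and CSPG4 were lowest at D2, and RGS5, below the filter, was highest at D4 (0.742 FPKM). The part of these differences in the lipase values was not tested. Endothelial markers summed to 6.65, 2.43, 2.84 and 3.78 FPKM, mostly from PECAM1 (2.56, 1.14, 1.7 and 1.87) and ERG (3.72, 0.981, 0.85 and 1.7). The other 8 of 10 were below 1 in all libraries, with CDH5, VWF and KDR at 0.045 FPKM or less. Macrophage markers summed to 5.1, 9.28, 9.99 and 7.46 FPKM, of which CD14 made up 3.14, 5.64, 7.54 and 2.78, and 7 of 11 were below 1 FPKM in all libraries. Skeletal muscle markers summed to no more than 0.196 FPKM, with 4 of the 8 having values. No marker with values was at 0 in all 4 libraries.

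**Figure D5:**
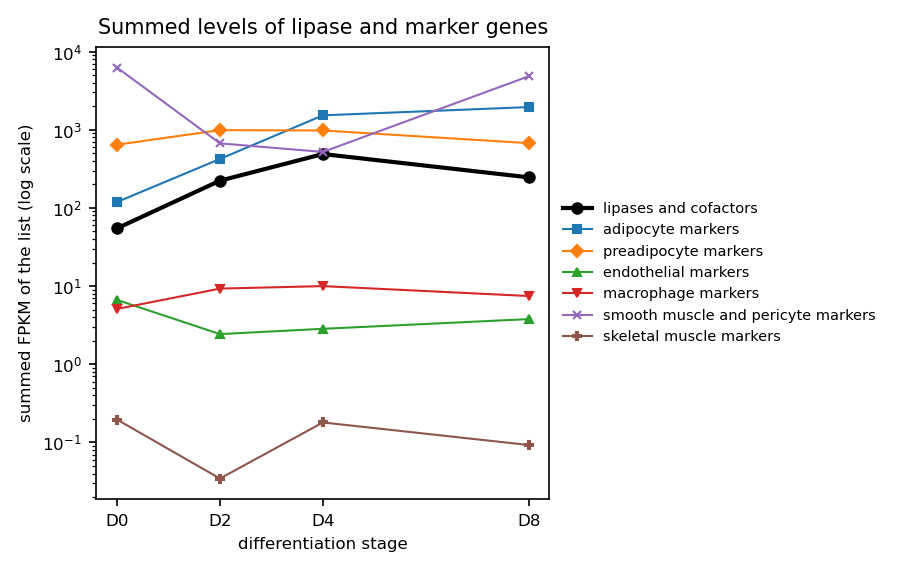
Summed FPKM (y axis, log scale) of the 9 lipases and cofactors with values and of each list of cell type markers by stage (x axis), 1 library per stage. The lipases reach 489 FPKM at D4 and are at 246 at D8. The adipocyte sum of 1950 at D8 is mostly FABP4 (1557), while 7 of 9 reliably expressed adipocyte markers are lower than at D4. The smooth muscle and pericyte sum, mostly ACTA2 and TAGLN, is lowest at D4 with 520.

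Around the 9 genes, 40 other features overlapped a gene or lay within 50 kb of it, 7 of them overlapping. Of the 8 long noncoding RNAs among them, 1 reached FPKM 1 in 3 libraries, an antisense transcript 3385 bases from PNPLA3 with 1.21, 1.45, 1.22 and 1.42 FPKM. Beside PNPLA2, CRACR2B on the same strand, 140 bases away, had 1.31 FPKM at D0, 0.326 at D2, 0.245 at D4, then 0.423 at D8, lowest where PNPLA2 was highest. CD151, 7038 bases from PNPLA2, followed the same order with 225, 68.5, 41.3 and 116 FPKM. HSD11B1, which regenerates active glucocorticoid and lies 8669 bases from G0S2, had 1.01, 4.22, 3.58 and 2.97 FPKM. These neighbours were singled out after their values were seen.

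CircRNAs, measured as SRPBM (back-splice junction reads scaled to the mapped reads of the library), were found inside 5 of the 9 genes, 9 circRNAs in all on the strand of the gene. The most regular one lay in LMF1 (chromosome 3, 40858043 to 40882821) with 51.3 SRPBM at D0, 65.4 at D2, 65.3 at D4, then 101 at D8, from 8, 9, 11 and 12 junction reads. It was the one circRNA of the 9 found in every library. The others were each found in a single library, with 2 to 16 junction reads. A circRNA of ABHD5 (chromosome 13, 27047047 to 27049849) had 16 reads at D0 and was listed at 0 in the other libraries, where the linear mRNA was higher. The 2 circRNAs of LPL share their start on chromosome 14 at 4113663, one with 8 reads at D4 and the other with 5 at D8. A count of 0 allows up to 3 reads, that is 19.3 SRPBM at D0, 21.8 at D2, 17.8 at D4, then 25.2 at D8, so that absence cannot be read from a 0.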

How the data were processed

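One RNA-seq library per stage (D0, D2, D4 and D8), pooled from 3 piglets, was used as the labels group them. The authors aligned reads to Sscrofa11.1 with HISAT2 2.0.5, detected circRNAs with BWA-MEM and CIRI from at least 2 junction reads, and deposited FPKM for genes and SRPBM for circRNAs in a single column. The gene counter and its strand setting are not given in the sources used here.

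Ratios were taken on log2(FPKM + 0.01), which understates changes of low genes, for genes with FPKM of at least 1 in at least 3 libraries. Library totals (75387428, 54987801, 74358922 and 54128151 fragments) were computed from read counts and per-million values in the study's lists of DE genes. Reads of a gene came from the smallest length that made all 4 FPKM whole within 0.01 reads, for PNPLA2 with the multiple set by the study's count. For LIPE, ABHD5, MGLL, LPL and LIPA they equalled the study's counts, and those of PNPLA3, G0S2 and LMF1 had no such check. Intervals are exact (Clopper-Pearson, 95%) and cover counting error only, not the spread between libraries of a stage. PCR reads without molecular identifiers are not independent, so the intervals may be too narrow even for counting error. No test was made, since each stage had 1 library. The read recovery was tested on simulated data.

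The genes and lists were chosen with earlier results of these data known. Named are the 10 genes, the 2 reliably expressed genes of each list with the largest D4 vs D0 log2 ratio in either direction, PLIN1, CIDEC, ANGPTL4, PDE3B and HILPDA, and the 3 genes nearest in profile to LIPE, PNPLA2, LPL and PNPLA3. Genes outside this rule are marked in the text, apart from markers, genes that overlap one of the 10, and LMF2 and SEL1L, named beside LMF1. Alternatives were pseudocounts of 0.1 and 1, no filter, a filter in all 4 libraries, median-ratio scaling and scaling to protein-coding FPKM. Python 3.11.15, numpy 2.4.6, pandas 2.3.3, scipy 1.17.1 and matplotlib 3.10.9 were used.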

Additional observations from a re-analysis of the deposited data

How the results depend on the processing

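No result changed direction among the counts and medians of the 7 genes, which become 9 with no filter and 5 with the filter in all 4 libraries. The median log2 ratio in D2 vs D0 moved to 1.43 with a pseudocount of 1 and 0.96 with no filter. In D4 vs D2 it was 1.07 with a pseudocount of 1, 1.40 with no filter, 1.0 with the filter in all 4 libraries (3 genes upregulated) and 1.06 with median-ratio scaling. In D8 vs D4 it was -0.99 with median-ratio scaling. In D4 vs D0 it was 2.35 with a pseudocount of 1 and 2.12 with no filter, and in D8 vs D0 it was 1.55, 1.40, 1.40 and 1.96 with a pseudocount of 1, no filter, the filter in all 4 libraries (3 genes upregulated) and median-ratio scaling. Of 250 ratios of single genes, 1 changed sign (G0S2 in D8 vs D0, 0.10 with median-ratio scaling). Another 13 crossed the 2-fold limit, and 47 of the 250 fell outside their counting interval. The 250 include ratios under the filter alternatives, where the ratio of a single gene stays as it was and could not move. The 13 include PNPLA2 in D4 vs D2, from 0.91 to 0.99 under 4 alternatives, and LIPA in D2 vs D0, 1.07 with scaling to protein-coding FPKM. The cause was not tested. Without a filter, 16192 genes were counted. Upregulated and downregulated were 2038 and 2755 in D2 vs D0, 2007 and 1013 in D4 vs D2, 1778 and 2702 in D8 vs D4. In D4 vs D0 they were 2842 and 2379, and in D8 vs D0 1702 and 1808. Each share was above that with the filter, such as 12.6% upregulated in D2 vs D0 instead of 6.67%. The cause was not tested. Without the gene length, the ratio of LIPE to PNPLA2 at D2 turned from 0.799 to 1.4. Dropping the length multiplies a ratio by the same number in every library, so it cannot change the order of the libraries. No paired analysis was possible because each stage has 1 library. Few reads limit G0S2 and the circRNAs.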
